A study of Mus musculus with 12 samples.

Results

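The comparison asked how the pancreatic response to cerulein differs between 2 substrains of the C57BL/6 mouse, C57BL6/J from Jackson (J) and C57BL6/NHsd from Harlan (NHsd). It uses all 12 arrays of the series, 3 mice in each of 4 groups: NHsd given saline, NHsd with chronic pancreatitis brought on by cerulein, J given saline, and J with cerulein. The labels give an age of 8 weeks for every mouse. They call the saline mice female and give no sex for the cerulein mice. Each array held pancreas RNA of a separate mouse, and no cerulein dose or schedule is given in the labels used here. The quantity reported for each gene is the difference of response, which is the cerulein minus saline change in J minus that change in NHsd, in log2 units. A positive value means that the gene rose more or fell less in J. A second fit left out the first J cerulein array, which stood apart from the others of its group, and used the remaining 11.

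Cerulein is a peptide that acts on the cholecystokinin receptors of acinar cells, the enzyme-producing cells of the exocrine pancreas. Repeated injection injures these cells. Macrophages then enter the tissue, acinar cells take on duct-like features, and stellate cells lay down collagen. Type I interferons induce antiviral genes such as the Ifit and Oas families, many of which carry an interferon-stimulated response element in their promoters. The J substrain carries a known deletion in Nnt, the mitochondrial transhydrogenase that makes NADPH.

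A signal over log2 4 on at least 3 arrays was found for 8505 genes, which were tested, and 26.3 to 31.3% of all probe sets passed log2 4 on each array. Spink1, the trypsin inhibitor made by acinar cells, was at 13.92 or above on every array. Xist, transcribed from the inactive X chromosome of females, lay between 9.52 and 11.5 on all 12 arrays, and the highest signal of the Y-linked probe sets was 3.37. Nnt and Wdfy1, an endosomal adaptor gene, were lower in J than in NHsd in saline and after cerulein, as given at the end. J cerulein replicate 1 correlated at 0.952 and 0.959 with the other J cerulein arrays across the kept probe sets, which correlated at 0.992 with each other. On it 773 genes lay over 2-fold from the mean of the other 2 arrays of its group, against 41 to 187 genes on the other 11 arrays. Its mean signal of the poly-A spike-in controls was 7.10, against 5.88 to 6.08 on the other 5 cerulein arrays. Its Xist signal was 9.76, against 11.2 to 11.5 on those 5 arrays.

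The J and NHsd responses, which share no array, correlated across the 8505 genes at a Pearson r of 0.888, and at 0.928 without J cerulein replicate 1. Within J, 47.8% of genes rose and 7.61% fell after cerulein at an adjusted p under 0.05, and within NHsd 48.7% rose and 6.6% fell. The median change over all genes was 0.47 in J and 0.49 in NHsd. The mean signal of the hybridisation spike-in controls was 7.96 to 8.49 in NHsd saline and 6.46 to 6.60 in NHsd cerulein. In J it was 8.17 to 9.09 in saline and 6.41 to 6.81 after cerulein. The part of a shift of scale between treatments in these shares was not tested. The correlations are descriptions over genes, which are not independent replicates. Mmp7, which encodes the secreted protease matrilysin, was the gene called in the difference of response at an adjusted p under 0.05 (limma, Benjamini-Hochberg over 8505 genes). That is 0.0118% of the genes in the direction of a larger response in J, and 0 genes were called in the other direction. At an unadjusted p under 0.05, 270 genes had a larger response in J (3.17%) and 328 a smaller one (3.86%). Without J cerulein replicate 1, limma called 0 genes, with 232 (2.73%) larger and 253 (2.97%) smaller at an unadjusted p under 0.05. The 95% interval of the difference lay within 1 log2 unit of 0 for 5299 genes (62.3%), and for 6402 (75.3%) in the fit on 11 arrays. Genes other than Mmp7 are therefore given below as values, with their error, and were not called as different between the substrains.

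**Figure D1:**
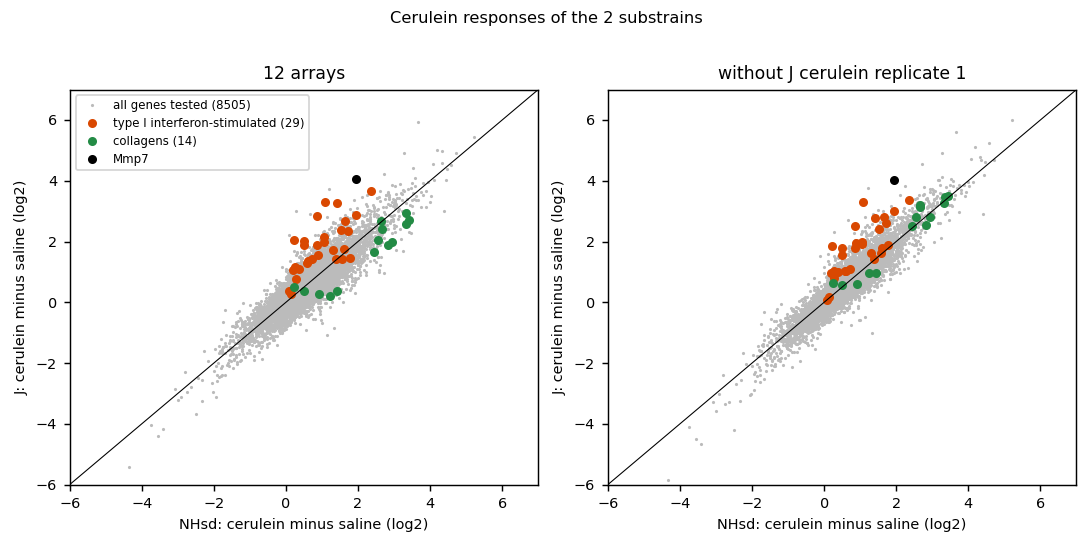
Cerulein response of each of 8505 genes in NHsd (x axis) and J (y axis), as log2 cerulein minus saline, with 12 arrays on the left and without J cerulein replicate 1 on the right; the line marks equal responses. Most of the 29 interferon-stimulated genes (orange) and Mmp7 (black) lie above the line in both panels, and most of the 14 collagens (green) lie below it on the left and near it on the right.

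Mmp7 rose in both substrains and rose more in J. Its product degrades matrix proteins and is known as an epithelial protease that appears in duct-like acinar cells. The log2 signal of Mmp7 was 3.89, 3.89 and 3.70 in NHsd saline and 3.78, 3.89 and 3.70 in J saline, all under log2 4. After cerulein it was 5.56, 6.22 and 5.55 in NHsd and 7.87, 8.08 and 7.57 in J. Every J cerulein array lay above every NHsd cerulein array, and the saline groups overlapped. Against log2 4, Mmp7 rose at least 14.3-fold in J and at least 3.43-fold in NHsd. After cerulein, the Mmp7 signal was 4.18-fold higher in J (adjusted p = 0.00116). The difference of response of Mmp7 was 2.10 ± 0.28 (SE, n = 3 mice per group; 95% interval 1.5 to 2.71; limma adjusted p = 0.0492). Without J cerulein replicate 1 it was 2.09 ± 0.30, with an adjusted p of 0.0929, so the value stayed and the call was lost. The call was also lost without any 1 of the 6 saline arrays, NHsd cerulein replicate 1 or J cerulein replicate 2, at values of 1.98 or more, and kept without NHsd cerulein replicate 2 or 3 or J cerulein replicate 3. The saline values lie below the threshold, so the difference of Mmp7 rests on the cerulein groups.

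The promoter of Mmp7 is shown because it is the called gene. It is the stretch of 250 bases before the start at chr9:7691840-7692089 (GRCm38.p6, + strand, RefSeq), with a match to the AP-1 motif TGANTCA, which reads the same on both strands, in capitals.

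Mmp7: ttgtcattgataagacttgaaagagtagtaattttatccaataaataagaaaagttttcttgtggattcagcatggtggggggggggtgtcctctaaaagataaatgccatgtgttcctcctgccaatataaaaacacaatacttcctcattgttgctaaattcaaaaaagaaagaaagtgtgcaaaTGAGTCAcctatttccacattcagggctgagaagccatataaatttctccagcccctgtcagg

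The AP-1 motif occurred in 7.81% of 32851 RefSeq promoter windows, so its presence in 1 window is a description of the sequence.

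Other genes of duct-like and gastric epithelium had smaller differences. Of 24 duct and metaplasia genes tested, Mmp7 included, 14 had a positive difference and the median was 0.09, against -0.01 over all genes tested; it was -0.05 without NHsd cerulein replicate 3. Krt19, a duct keratin chosen here after its value was seen, had a difference of 0.65 ± 0.26. Anxa10, an annexin of the gastric surface epithelium, was under log2 4 in both saline groups. It reached 6.48, 7.11 and 5.43 in NHsd and 8.32, 8.58 and 8.06 in J after cerulein, where the groups did not overlap. Its difference of response was 1.64 ± 0.48 with 12 arrays and 1.64 with 11, and its adjusted p was 0.702. Anxa10 had the largest value of 5 stomach and intestine genes tested, of which 3 were positive and 2 negative. Their median was 0.01 with 12 arrays and -0.32 with 11, and the lowest was Gkn3 at -0.67.

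Most of the type I interferon-stimulated genes tested had a larger value of the response in J. Of 50 genes on this list, 44 had a probe set and 29 passed the filter on low signal, and 1 of those 29, Ifit1, passed it through the J cerulein arrays alone. With 12 arrays, 27 of the 29 had a positive difference, the median was 0.86 against -0.01 over all genes, and 18 were larger in J at an unadjusted p under 0.05, against 3.17% of all genes; 0 were smaller. Left without Ifit1, 26 of 28 were positive, the median was 0.80 and 17 were larger. Without J cerulein replicate 1, 28 of the 29 were positive, the median was 0.85 and 15 were larger at that threshold. With no filter, 39 of the 44 genes were positive, the median was 0.70 and 19 were larger (43.2%, against 2.79% of 18194 genes). Left without NHsd saline replicate 1, the count of 18 fell to 11. None of the 29 was called at an adjusted p under 0.05 on these 12 arrays, and no test of the list was run. The list was chosen with earlier results of these data known, and its genes are not independent replicates. Ly6e, also an interferon-induced gene, was not on the list. Its 2 probe sets had negative differences, -0.87 and -0.43, 1 of them at an unadjusted p under 0.05 (limma).

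Their mean log2 signal shows where the difference lies. It was 4.73, 4.49 and 4.63 in NHsd saline and 4.73, 4.63 and 4.65 in J saline. After cerulein it was 5.38, 5.49 and 5.92 in NHsd and 6.68, 6.63 and 6.24 in J. The saline groups overlapped and the cerulein groups did not. For 19 of the 29 genes every J cerulein array lay above every NHsd cerulein array, which held for 7.94% of all genes, and for 0 the reverse held, against 4.39% of all genes. In J 27 of the 29 rose after cerulein at an adjusted p under 0.05, against 47.8% of all genes. In NHsd 19 of the 29 did, against 48.7% of all genes.

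Ifit1, an antiviral protein that binds foreign RNA, was at 2.78, 2.72 and 2.78 in NHsd saline and 2.78, 3.05 and 3.12 in NHsd cerulein. It was at 2.78, 2.76 and 2.76 in J saline and 5.20, 4.81 and 4.44 in J cerulein. It passed log2 4 on the J cerulein arrays and on no other, a rise of at least 1.76-fold in J. The difference of response of Ifit1 was 1.83 ± 0.26 (adjusted p = 0.0574), and 1.64 ± 0.22 (adjusted p = 0.0929) without J cerulein replicate 1. Usp18, a protease that removes ISG15 from proteins and damps interferon signalling, was at 2.95, 3.53 and 4.02 in NHsd cerulein and 6.24, 5.58 and 4.96 in J cerulein, with all 6 saline arrays under log2 4. Its difference was 1.97 ± 0.43 with 12 arrays and 1.65 ± 0.38 with 11.

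Further members were chosen after their values were seen. Ifi27l2a, a small interferon-induced membrane protein, was at 6.83, 7.42 and 7.73 in NHsd cerulein and 10.3, 9.04 and 8.53 in J cerulein, a difference of response of 1.86 ± 0.60. Oas1a, a sensor that activates RNase L, had a difference of 1.54 ± 0.40, and Rtp4, a receptor transport protein, of 1.29 ± 0.38. Ifit3 had a difference of 1.39 ± 0.42 and Bst2, the tetherin that holds virus at the cell surface, of 1.09 ± 0.31. Samd9l, an antiviral translation inhibitor, was at 3.21, 3.07 and 5.90 in NHsd cerulein and 6.10, 6.25 and 6.08 in J cerulein, a difference of 2.20 ± 0.77; the third NHsd array stood near the J arrays. Ifitm3, Parp9 and Dtx3l rose in both substrains with differences of 0.13 ± 0.22, 0.06 ± 0.29 and -0.14 ± 0.29, whose intervals lay within 1 log2 unit of 0.

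Sequences before the start of 6 of these genes are shown because they hold matches to the element named above. The motif searched was the core of the interferon-stimulated response element, GAAA, any 2 bases and GAAA again, on both strands, and matches are in capitals (on the other strand it reads TTTC, any 2 bases, TTTC). All are from RefSeq, GRCm38.p6, read 5′ to 3′ on the gene's strand: 250 bases for Ifit1 (chr19:34640639-34640888, +), and 30 bases for Ifit3 (chr19:34583363-34583392, +), Oas1a (chr5:120907526-120907555, -), Bst2 (chr8:71537580-71537609, -), Rsad2 (chr12:26456553-26456582, -) and Trim30a (chr7:104465210-104465239, -).

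Ifit1: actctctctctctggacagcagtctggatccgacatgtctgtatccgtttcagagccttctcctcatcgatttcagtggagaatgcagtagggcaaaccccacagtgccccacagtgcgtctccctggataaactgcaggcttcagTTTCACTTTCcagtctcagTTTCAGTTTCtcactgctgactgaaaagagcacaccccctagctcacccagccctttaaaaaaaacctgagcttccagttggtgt

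Ifit3: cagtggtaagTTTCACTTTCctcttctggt

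Oas1a: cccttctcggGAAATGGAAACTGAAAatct

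Bst2: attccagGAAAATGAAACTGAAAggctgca

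Rsad2: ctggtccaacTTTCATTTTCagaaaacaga

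Trim30a: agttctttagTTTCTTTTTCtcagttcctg

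Ifit1 and Ifit3 each hold 2 separate matches, and the bases printed for Ifit3 show the first. In Oas1a and Bst2 2 matches overlap. Of the 29 genes, 21 had a promoter window and 8 of these held the motif, against 3.99% of 27025 genes with a window. The 8 had a median difference of response of 1.05, and 7 were larger in J at an unadjusted p under 0.05. The 13 without a match had 0.71, and 6 were larger. Over all genes, 3.17% were larger at that threshold. The windows run past the start, and the matches of Ifitm3 and Ifih1 lie after it. Ifitm3, with a difference of 0.13, was the gene of the 8 that was not larger. A match describes the letters in the window and shows no binding, and the part of the motif in the difference was not tested.

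**Figure D2:**
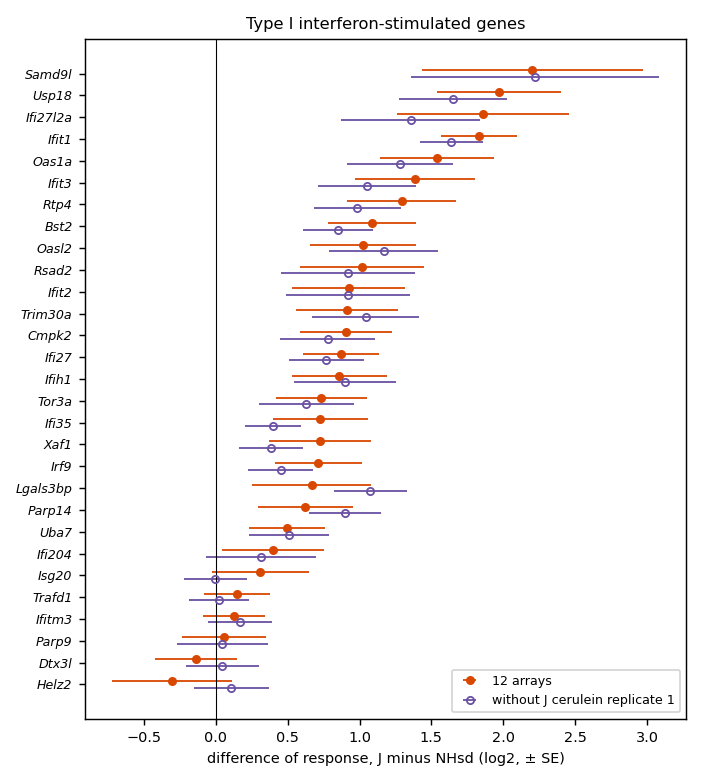
Difference of cerulein response (J minus NHsd, log2, with SE) of the 29 interferon-stimulated genes tested, with 12 arrays (filled) and without J cerulein replicate 1 (open). With 12 arrays 27 of the 29 points lie to the right of 0, and without J cerulein replicate 1 28 do.

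Of 15 genes tested that are induced mainly by interferon gamma, 13 had a positive difference with a median of 0.32 in both fits, and 1, Psmb8 of the immunoproteasome, was larger in J at an unadjusted p under 0.05, at 1.11 ± 0.43. Of 6 MHC class II genes tested, 5 were positive with a median of 0.37, and 0 passed that threshold. Over all genes, 3.17% were larger in J at that threshold. Without NHsd saline replicate 1 the MHC class II median was 0.17. The smallest p was that of H2-DMb2, at 0.54 ± 0.34.

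Chemokines and macrophage genes followed the same direction in part. Of 28 chemokines listed, 9 passed the filter, with a median difference of 0.65, and 4 were larger in J at an unadjusted p under 0.05, namely Ccl6, Ccl8, Ccl9 and Cxcl16, against 3.17% of all genes. The median was 0.32 without NHsd cerulein replicate 3. With no filter, the 26 on the array had a median of 0.02. Ccl8 was at 7.84, 7.87 and 8.13 in NHsd cerulein and 10.2, 9.53 and 8.86 in J cerulein, and its difference of response was 2.27 ± 0.69 (1.94 with 11 arrays). Ccl6 differed by 1.28 ± 0.38. On these 2 genes, every J cerulein array lay above the NHsd median, and the Ccl8 groups did not overlap.

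Of 33 macrophage markers, 26 passed the filter. Of these 19 had a positive difference, with a median of 0.26 (0.33 with 11 arrays), and 5 were larger in J at an unadjusted p under 0.05 and 0 smaller, against 3.17% and 3.86% of all genes. With 11 arrays 3 were larger, and the median was 0.15 without NHsd saline replicate 1. Folr2, the folate receptor of resident macrophages, was under log2 4 in saline. It was at 4.89, 4.80 and 4.48 in NHsd cerulein and 5.87, 5.87 and 5.41 in J cerulein, which did not overlap, and its difference was 1.03 ± 0.23 (adjusted p = 0.47). Of the 26 markers, 7 had a negative difference, among them Itgb2 (-0.59), Mpeg1 (-0.55), Cd163 (-0.11) and Lyve1 (-0.05). Mrc1 was at 0.08. Outside the marker list, Cd209f, a lectin of resident macrophages with several related genes, was at 4.02, 3.84 and 3.84 in NHsd cerulein and 5.76, 5.24 and 4.89 in J cerulein, a difference of 1.32 ± 0.28. Cd300c2, an activating receptor of myeloid cells, had a difference of 1.13 ± 0.23, with every J saline array below every NHsd saline array, which held for 4.19% of all genes. Alox5ap, which presents arachidonic acid to 5-lipoxygenase in myeloid cells, had a difference of 1.09 ± 0.26. The summed linear signal of the 26 markers was 7588 to 9399 in NHsd cerulein and 8429 to 12159 in J cerulein, so the groups overlapped. In whole tissue, more cells of a type and more RNA per cell cannot be told apart, and the part of macrophage number in the interferon-stimulated genes was not tested. Of 20 T and NK cell markers 1 passed the filter, and Cd3e, Cd4 and Cd8a did not. The neutrophil genes S100a8 and S100a9 varied within groups, S100a8 from 4.46 to 8.01 in J cerulein, and their differences had SEs of 1.58 and 1.51.

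**Figure D3:**
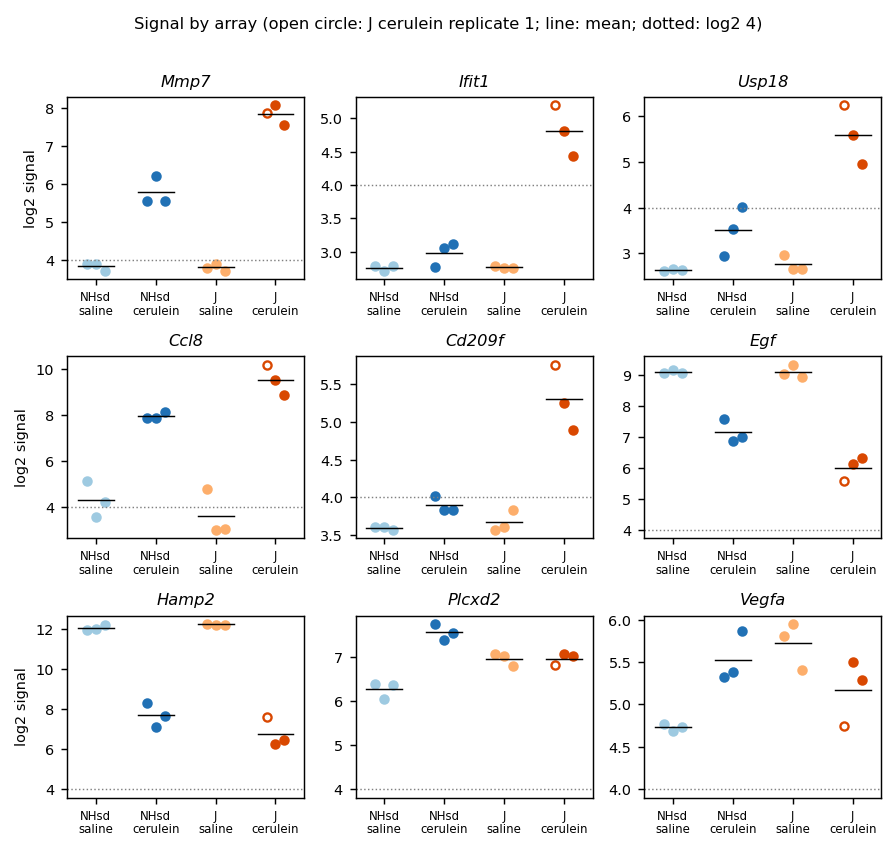
Log2 signal of 9 genes on each of the 12 arrays, 3 per group, with the group mean as a line; the open circle is J cerulein replicate 1 and the dotted line is log2 4. In the upper row, Ccl8 and Cd209f the J cerulein arrays stand above the NHsd cerulein arrays. In Plcxd2 and Vegfa the J and NHsd saline arrays are apart, and in Plcxd2 the cerulein arrays are apart too, with J below NHsd.

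The 14 genes with the smallest p in the direction of a larger response in J, over both fits, differed mostly after cerulein. For all 14, every J cerulein array lay above every NHsd cerulein array, against 7.94% of all genes, and for 13 the gap between the substrains was larger after cerulein than in saline. For 4 of the 14, every J saline array lay below every NHsd saline array, against 4.19% of all genes. For 7 of the 14 the J response passed an adjusted p under 0.05 and the NHsd response did not, and for 2 the reverse held. Of all 8505 genes, 4716 passed in J. Of those 4716, 3757 also passed in NHsd in the same direction, and 1 in the opposite direction. The 14 genes were picked from this contrast, so the pattern describes them and tests nothing. S100g, the calcium-binding calbindin of absorptive epithelium, was at 2.93, 4.41 and 2.94 in NHsd cerulein and 5.90, 5.64 and 5.06 in J cerulein, a difference of 2.23 ± 0.49. The J cerulein arrays were needed for S100g to pass the filter on low signal. Cltrn, or collectrin, a membrane protein that assists amino acid transporters and insulin secretion, was at 6.19, 6.44 and 6.84 in NHsd cerulein and 8.20, 7.54 and 7.63 in J cerulein. Its difference was 1.37 ± 0.31, and the saline groups overlapped. Phlda3, a p53 target that restrains Akt, had a difference of 1.13 ± 0.30, and 0.83 ± 0.17 with 11 arrays. Asb11, a ubiquitin ligase adaptor, differed by 1.24 ± 0.28, and Umod, the gene of uromodulin, by 1.0 ± 0.30 (1.23 ± 0.25 with 11 arrays).

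Wdr18 and Eda fell in NHsd and were not called in J. Wdr18, a factor of ribosome assembly, was at 9.06, 9.02 and 9.02 in NHsd saline, 7.45, 7.23 and 7.37 in NHsd cerulein, 8.43, 8.57 and 8.95 in J saline and 8.51, 8.02 and 8.65 in J cerulein. Its difference of response was 1.42 ± 0.26, whereas its other probe set gave 0.32 ± 0.33, so the probe sets disagree. Eda, the ectodysplasin ligand, was over log2 4 in NHsd saline alone, at 4.67, 4.56 and 4.33, and fell at least 1.43-fold in NHsd, with a difference of 1.15 ± 0.21.

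Islet genes also had larger values in J. Of 17 tested, 15 had a positive difference with a median of 0.52, and 6 were larger in J at an unadjusted p under 0.05, against 3.17% of all genes. Isl1, an islet transcription factor and one of the 6, passed the filter through the J cerulein arrays alone; without it 14 of 16 were positive, the median was 0.46 and 5 were larger. Without J cerulein replicate 1 the median over 17 was 0.55 and 9 were larger, with 1 smaller, against 2.73% and 2.97% of all genes. With no filter, 21 of 23 were positive and the median was 0.35. Ppy, the pancreatic polypeptide of islet PP cells, was at 4.59, 4.13 and 5.04 in NHsd cerulein and 6.89, 5.77 and 6.01 in J cerulein, and its difference was 1.32 ± 0.40. Ins2 (0.24 ± 0.15) and Gcg (0.07 ± 0.30), the genes of the main islet hormones, had differences near 0. Gal, the neuropeptide galanin, went the other way, at -0.84 ± 0.40. The summed signal of the 17 genes was 23844 to 29418 in NHsd cerulein and 32288 to 36956 in J cerulein, without overlap; the share of islet tissue in each sample was not measured.

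Proliferation genes had a median difference of 0.29 over 33 genes, with 24 positive, 7 larger in J and 1 smaller at an unadjusted p under 0.05, against 3.17% and 3.86% of all genes. With 11 arrays, 4 were larger and 0 smaller. The smallest p was that of Nusap1, a spindle protein, at 1.02 ± 0.32. In the cholesterol synthesis list of 12 genes, Msmo1, Idi1 and Fdps were larger in J and Lss smaller at that threshold, with a median of 0.06 (-0.09 without J saline replicate 3). Msmo1, a sterol demethylation enzyme, had a difference of 0.93 ± 0.27.

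The 16 genes with the smallest p in the direction of a smaller response in J differed mainly before treatment. In 11 of the 16 the substrains stood farther apart in saline than after cerulein, and in 14 every J saline array lay above every NHsd saline array, against 8.41% of all genes. In 6 of the 16 every J cerulein array lay below every NHsd cerulein array, against 4.39% of all genes. In 9 of the 16 the NHsd response passed an adjusted p under 0.05 and the J response did not, and in 2 the reverse held. Of all 8505 genes, 4700 passed in NHsd. Of those 4700, 3757 also passed in J in the same direction, and 1 in the opposite direction. The counts for the 16 again describe genes picked from the same contrast. Plcxd2, a phospholipase-like protein, was at 6.39, 6.06 and 6.37 in NHsd saline and 7.75, 7.39 and 7.55 in NHsd cerulein, and at 7.08, 7.02 and 6.80 in J saline and 6.82, 7.06 and 7.02 in J cerulein. It rose in NHsd (1.29, adjusted p = 3.60e-05) and had a J change of 0.00. Its difference of response was -1.29 ± 0.22 (adjusted p = 0.197), and its other probe set gave -0.75.

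Vegfa, the main growth factor of blood vessels, was the gene called in opposite directions within the substrains. It was at 4.76, 4.69 and 4.74 in NHsd saline and 5.32, 5.39 and 5.86 in NHsd cerulein, a rise of 0.79 (adjusted p = 0.00868). In J it was at 5.81, 5.95 and 5.41 in saline and 4.74, 5.50 and 5.29 after cerulein, a change of -0.55 (adjusted p = 0.0499). The J groups overlapped, and without J cerulein replicate 1 the J change of Vegfa was -0.33. The difference of response of Vegfa was -1.34 ± 0.31 (adjusted p = 0.513; -1.12 ± 0.27 with 11 arrays). Pag1, a membrane adaptor that recruits Csk, had a difference of -1.15 ± 0.32. Arntl2, a clock transcription factor, was at 3.74, 3.69 and 4.23 in NHsd saline and 5.33, 4.87 and 4.26 in J saline, and its difference was -1.56 ± 0.41. Zfp36l1, which speeds decay of AU-rich mRNAs, differed by -1.33 ± 0.38, and Kmt2d, a histone H3 lysine methyltransferase, by -1.37 ± 0.43 (-0.90 without J cerulein replicate 1). Rpgrip1, Ankrd24, Zfp9, Pm20d2, Tbc1d23, Napg and Mier2 ranged from -1.15 to -0.75. Gigyf2, a translational repressor, had a difference of -1.28 ± 0.28, but its other probe set gave 0.71 ± 0.41, and that of Napg gave 0.04 against -0.84. The other probe sets of Tbc1d23 and Zfp36l1 gave -0.53 ± 0.34 and -0.84 ± 0.51, of the same sign as those used.

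Egf and Hamp2 fell in both substrains, with larger values of the fall in J. Egf, epidermal growth factor, was at 9.08, 9.18 and 9.06 in NHsd saline and 9.06, 9.35 and 8.96 in J saline. After cerulein it was at 7.58, 6.87 and 7.02 in NHsd and 5.57, 6.15 and 6.34 in J, without overlap, a difference of response of -1.15 ± 0.31 (-0.93 ± 0.27 with 11 arrays). Hamp2, a hepcidin gene whose probe set may also bind its near copy Hamp, was at 11.94 to 12.16 in NHsd saline and 12.24, 12.20 and 12.19 in J saline, which lay just above. After cerulein it was at 8.30, 7.12 and 7.65 in NHsd and 7.59, 6.27 and 6.46 in J. The cerulein groups overlapped, and the difference was -1.09 ± 0.46, or -1.50 ± 0.34 without J cerulein replicate 1.

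Digestive enzyme genes had a median difference of -0.11 over 24 genes. At an unadjusted p under 0.05, 1 was larger and 1 smaller (4.17% each), near the 3.17% and 3.86% of all genes. The smaller was Gp2, the main protein of the zymogen granule membrane, at -0.67 ± 0.20, with 13.75, 13.23 and 13.41 in NHsd cerulein and 12.71, 12.59 and 13.06 in J cerulein. Acinar identity factors had a median of -0.23 over 17 genes, and Rbpjl, the acinar subunit of the PTF1 complex, had -0.92 ± 0.36. It was the 1 gene of the 17 smaller in J at that threshold (5.88%, against 3.86% of all genes). Without J cerulein replicate 1 the median was -0.18, the lowest value of the list was -0.64 and 0 were smaller, against 2.97% of all genes.

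Collagen genes changed sign with 1 array. With 12 arrays, 12 of 14 tested collagens had a negative difference and the median was -0.67. Without J cerulein replicate 1, 8 were positive and the median was 0.07. At an unadjusted p under 0.05, 0 of the 14 differed with 12 arrays, against 3.17% larger and 3.86% smaller of all genes. With 11 arrays 1 was smaller in J, against 2.97% of all genes. On all 14 genes that array was the lowest of the J cerulein group, by a median of -2.0 against the mean of the other 2. Col1a2, the second chain of type I collagen, was at 11.5, 10.9 and 11.4 in NHsd cerulein and 9.38, 11.99 and 11.40 in J cerulein. Its difference was -0.70 ± 0.68 with 12 arrays and 0.07 ± 0.30 with 11. Col4a1, of basement membranes, kept a negative value, -1.06 ± 0.53 and -0.45 ± 0.19.

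Other matrix proteins followed the collagens, with a median of -0.13 over 28 genes and 0.25 without that array. Asporin (Aspn), a small proteoglycan that binds collagen and TGF-beta, did not: it was at 3.27, 3.55 and 5.59 in NHsd cerulein and 6.15, 6.72 and 5.84 in J cerulein, a difference of 2.51 ± 0.68 and 2.56 with 11 arrays. The third NHsd cerulein array lay well above the other 2 of its group, and without it limma called 5 genes: Aspn, Samd9l, Casp8ap2, Mmp7 and Ifit1. Collagen-processing enzymes had a median of 0.22 over 10 genes, 0.04 without J cerulein replicate 2 and 0.43 with 11 arrays, where all 10 were positive. The smallest p was that of Pcolce2, an enhancer of procollagen cleavage, at 1.04 ± 0.30. Stellate cell and myofibroblast genes had a median of 0.22 over 17 genes, 0.31 with 11 arrays and 0.14 without J cerulein replicate 2. The smallest p was that of Thy1, a fibroblast surface protein, at 0.70 ± 0.30.

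**Figure D4:**
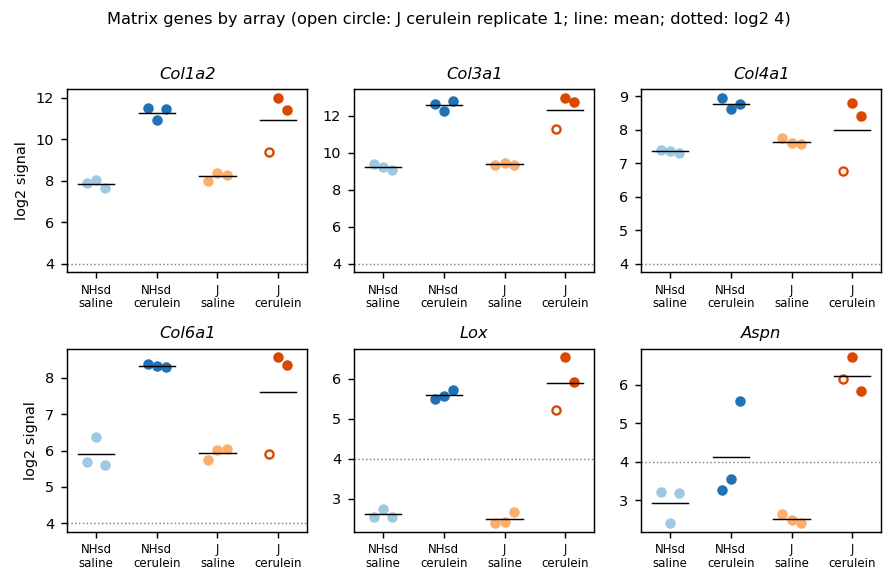
Log2 signal of 6 matrix genes on each of the 12 arrays, 3 per group, with the group mean as a line and log2 4 dotted; the open circle is J cerulein replicate 1. That array is the lowest J cerulein array for Col1a2, Col3a1, Col4a1, Col6a1 and Lox but not for Aspn, whose J and NHsd cerulein arrays do not overlap.

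The unfolded protein response list had a median of -0.26 over 30 genes and -0.07 without J cerulein replicate 1. Ern1, the endoplasmic reticulum stress sensor IRE1, had -1.07 ± 0.32. Oxidative phosphorylation genes were positive in 31 of 35 with a median of 0.17, and in 17 of 35 with a median of 0.00 without that array, which was the highest J cerulein array for 30 of them. The smallest p was that of Cox6a1, at 0.33 ± 0.15. Ribosomal protein genes went from a median of 0.13 to 0.00 over 19 genes, and the smallest p was that of Rpl14, at 0.68 ± 0.31. Circadian clock genes had medians of -0.31 and -0.36 over 10 genes, and Dbp, a clock output factor, had -0.90 ± 0.31; the hour of sampling is not given in the labels used here. The Reg family and acute pancreatitis list had a median of 0.49 over 12 genes (0.33 with 11 arrays and 0.14 without J saline replicate 2), and Atf3, a stress-induced factor, had 1.22 ± 0.42. Of the 12, 1 was larger in J at an unadjusted p under 0.05 (8.33%, against 3.17% of all genes). The median J minus NHsd value of the list was -0.53 in saline and -0.04 after cerulein, so the list differed mainly in saline. In 5 of the 12 every J saline array lay below every NHsd saline array, against 4.19% of all genes.

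**Figure D5:**
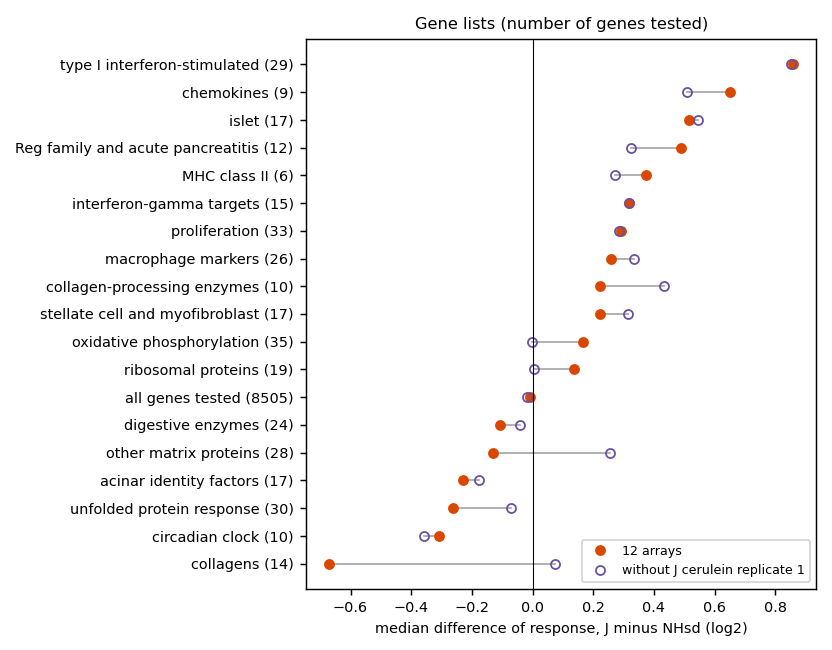
Median difference of cerulein response (J minus NHsd, log2) of 18 gene lists and of all 8505 genes tested, with 12 arrays (filled) and without J cerulein replicate 1 (open). The interferon-stimulated list stays near 0.86 in both, whereas the collagen list moves from -0.67 to 0.07.

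Of the genes listed for known J and N substrain variants, 7 were measured, and none had a called difference of response (limma; 0 also at an unadjusted p under 0.05). Nnt was lower in J in saline, with a J minus NHsd value of -1.39 (arrays at 10.2, 9.98 and 10.3 in NHsd, 8.89, 8.82 and 8.62 in J; adjusted p = 0.00244), and its difference of response was 0.04 ± 0.20, with an interval from -0.39 to 0.47. The other kept probe set of Nnt gave a difference of response of -0.31 ± 0.22, of the opposite sign. After cerulein Nnt had a J minus NHsd value of -1.35 (adjusted p = 0.00116). Wdfy1 was also lower in J, at -1.56 in saline (adjusted p = 0.0435) and -2.05 after cerulein (adjusted p = 0.00324), and had a difference of response of -0.49 ± 0.34. The other 5 measured members, Cyfip2, Fgf14, Gpx1, Ide and Snap29, ranged from -0.50 (Fgf14) to 0.32 (Gpx1). Without J cerulein replicate 1, Fgf14 was at -0.10, Gpx1 at 0.16 and Ide at -0.07.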

How the data were processed

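Pancreas RNA of 12 mice was hybridised to Affymetrix arrays, per the labels' protocols, which give an input of 100 ng. The authors deposited log2 probe set signals; GCRMA and Partek are the tools in the submitters' processing notes, and their versions are not given in the sources used here. The values were used as deposited. Of 45101 probe sets, 14296 exceeded log2 4 on at least 3 arrays. The kept probe set with the highest mean stood for each gene, by the platform annotation, leaving 8505 of 18194 genes.

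limma 3.58.1 (R 4.3.3) fitted 1 mean per group to 12 arrays, and to 11 without J cerulein replicate 1, with an intensity trend; p-values are two-sided, Benjamini-Hochberg adjusted over all genes. Where all arrays of a group lay under log2 4, that level replaced the group mean and the fold is a lower bound. The fit was tested on simulated data.

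Genes named are the 12 of smallest p in each direction with 12 arrays, the 8 with 11 arrays (called genes ahead of others), the smallest-p member of each list described, and the measured J and N lineage genes. Any other named gene was chosen after its values were seen. The members, the rule and the 50 lists were chosen with earlier results of these data known. Promoter windows are those of RefSeq (GRCm38.p6). Alternatives covered normalization, filter, probe sets, moderation, weights, replicate block and each array left out. The number of arrays limits the precision.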

Additional observations from a re-analysis of the deposited data

Results flagged for a closer look

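Mmp7 was singled out because the cerulein effect differed between the substrains by the test of the difference itself, at 2.10 (limma, adjusted p = 0.0492 over 8505 genes). All 3 J cerulein arrays lay above all 3 NHsd cerulein arrays. When the same model was fitted to all 14296 kept probe sets instead of 1 per gene, 0 were called.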

How the results depend on the processing

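The number of genes called for a different response was 1 with 12 arrays. It was 2 after quantile normalization, 0 with equal medians, 15 with no filter, 0 with a filter at log2 6, 2 with no trend and 3 with array quality weights. Leaving out 1 array at a time gave 0 to 5 genes, 5 without NHsd cerulein replicate 3 and 2 without NHsd cerulein replicate 2 or J cerulein replicate 3. In the fit without J cerulein replicate 1, which called 0, it was 1 after quantile normalization, 17 with no filter and 1 with no trend, and 0 to 4 with a further array left out, 4 without NHsd cerulein replicate 3 and 2 without NHsd cerulein replicate 2. Mmp7 kept a difference of 1.98 to 2.32 with 1 array left out. The count of 18 interferon-stimulated genes became 7 of 12 tested with the filter at log2 6, and 11 to 19 with 1 array left out, lowest without NHsd saline replicate 1. The median of the interferon-stimulated list stayed between 0.70 and 0.97, and that of the collagens between -1.14 and 0.074 with 1 array left out, highest without J cerulein replicate 1.

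Among uncalled lineage genes near 0, Cyfip2 turned to 0.056 with array quality weights, Nnt to -0.13 with the mean of kept probe sets, and Snap29 to -0.00386 with array quality weights; with 1 array left out Nnt ranged from -0.034 to 0.14 and Snap29 from -0.015 to 0.015. The replicate block gave 1 gene with 12 arrays and 0 with 11. Same-numbered arrays correlated over 0.1 in 6 of 18 pairs of groups (range -0.16 to 0.34), so the numbers were not taken to pair the mice. Signals under log2 4, common in saline for the genes that rose most, limit the size of those differences.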
